A study of Mus musculus with 37 samples.

Results

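The loss of PTP1B was examined in mammary glands at day 3 of pregnancy (P3), in 3 arrays of glands from PTP1B-/- females (KO) and 3 arrays of glands from PTP1B+/+ females (WT). These 6 arrays were chosen by their labels from the 37 of the series, which also holds both genotypes in nulliparous females in oestrus (P0) and at days 7, 10 and 15 of pregnancy (P7, P10 and P15). All animals were FVB females. The labels state that the null allele had been backcrossed to FVB for at least 7 generations and that females were mated at 12 weeks of age; no agent was given. KO females carry the null allele in every tissue, so the gland, the fat pad around it and the endocrine organs all lacked the enzyme. Total RNA of whole glands was hybridised to whole-transcript Affymetrix arrays, and each value is a log2 intensity. The labels do not say that the replicates came from separate animals, so the p-values measure the spread between these samples.

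PTP1B, encoded by Ptpn1, is a tyrosine phosphatase anchored to the endoplasmic reticulum that removes phosphate from the insulin receptor and from the kinase JAK2, and so dampens insulin, leptin and prolactin signalling. In the mammary gland prolactin acts through JAK2 and STAT5 to drive the differentiation of alveoli and the expression of milk protein genes. In early pregnancy progesterone and prolactin first bring on proliferation and side branching of the ducts, which grow through a stroma of fibroblasts, vessels and adipocytes. The series title asks how PTP1B deficiency affects mammary gland development and differentiation.

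Of 16870 genes tested, 20 were called at P3 (limma, all 37 arrays fitted together, Benjamini-Hochberg adjusted p below 0.05), which is 0.119% of the genes. Ptpn1 and 18 other genes fell, and Tph1 alone rose. The genes that fell included Pdgfrb, Alx4, Snai1, Snai2, Tcf4, Frem1, Lrrc15, Ptgis, F2r and Gna12. No cell cycle, interferon-induced, collagen or milk protein gene on the lists used was called, although several of those lists had most members on 1 side of 0. The lists were chosen with earlier results of these data known, so a called member adds no support to its list. A difference is given as KO minus WT on the log2 scale, ± the SE of the fit, and the words rose, fell and called are kept for genes past the threshold.

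The 18 fallen genes and the risen one were brought together only by their change, and no link of promoter sequence to that change was tested. The promoters of 5 of them are shown as examples: a secreted inhibitor (Slpi), a matrix-cell surface protein (Lrrc15), a receptor (F2r), a transcription factor (Snai1) and the gene that rose (Tph1). Each is the 250 bases before the annotated start in RefSeq (mouse assembly GRCm38.p6), 5′ to 3′ on the strand of the gene, and capitals mark GGGCGG or its reverse complement CCGCCC, the core of a GC box. Slpi lies at chr2:164356508-164356757, minus strand. Lrrc15 lies at chr16:30283255-30283504, minus strand. F2r lies at chr13:95618467-95618716, minus strand. Snai1 lies at chr2:167537945-167538194, plus strand. Tph1 has 2 annotated starts, at chr7:46672538-46672787, minus strand and at chr7:46667378-46667627, minus strand.
Slpi: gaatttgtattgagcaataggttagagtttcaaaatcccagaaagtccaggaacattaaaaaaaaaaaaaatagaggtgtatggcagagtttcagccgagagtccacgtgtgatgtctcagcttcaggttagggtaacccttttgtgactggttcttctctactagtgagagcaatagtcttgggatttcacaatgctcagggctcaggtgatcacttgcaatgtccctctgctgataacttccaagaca
Lrrc15: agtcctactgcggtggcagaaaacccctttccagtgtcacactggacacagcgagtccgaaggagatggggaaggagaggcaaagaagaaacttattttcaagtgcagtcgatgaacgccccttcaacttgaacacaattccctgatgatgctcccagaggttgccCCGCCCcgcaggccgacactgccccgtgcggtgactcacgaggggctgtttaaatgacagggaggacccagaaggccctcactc
F2r: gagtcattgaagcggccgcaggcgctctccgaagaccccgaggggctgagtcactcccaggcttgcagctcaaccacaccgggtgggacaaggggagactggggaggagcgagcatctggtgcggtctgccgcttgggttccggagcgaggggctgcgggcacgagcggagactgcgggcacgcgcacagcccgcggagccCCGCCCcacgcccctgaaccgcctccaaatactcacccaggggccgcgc
Snai1: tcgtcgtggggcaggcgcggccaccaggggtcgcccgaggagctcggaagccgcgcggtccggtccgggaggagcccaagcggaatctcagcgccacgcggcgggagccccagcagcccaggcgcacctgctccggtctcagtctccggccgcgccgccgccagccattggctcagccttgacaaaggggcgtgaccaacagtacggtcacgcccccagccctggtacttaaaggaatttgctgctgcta
Tph1 first start: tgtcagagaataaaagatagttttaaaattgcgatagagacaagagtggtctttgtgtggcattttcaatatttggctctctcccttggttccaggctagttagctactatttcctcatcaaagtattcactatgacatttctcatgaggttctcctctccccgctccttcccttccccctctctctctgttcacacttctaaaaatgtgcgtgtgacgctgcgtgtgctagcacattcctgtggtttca
Tph1 second start: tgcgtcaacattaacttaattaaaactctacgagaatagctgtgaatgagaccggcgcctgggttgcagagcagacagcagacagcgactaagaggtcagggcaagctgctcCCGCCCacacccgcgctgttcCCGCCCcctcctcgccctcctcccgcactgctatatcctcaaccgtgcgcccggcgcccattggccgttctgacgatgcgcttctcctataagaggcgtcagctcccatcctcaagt

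The RefSeq table held promoters for 13 of the 19 called genes other than Ptpn1, 17 promoters in all. GGGCGG, on either strand, was present in 9 of the 17 (52.9%), against 50.7% of the 16616 promoters of tested genes. The STAT-type palindrome TTCNNNGAA was in 0 of the 17, against 6.15% of the tested promoters. TATAAA was in 0 of 17 against 7.98%. The core of the interferon-stimulated response element was in 1 of 17 (5.88%, Arhgap6) against 2.63%. These 4 motifs were searched on both strands, and matches of the same motif may overlap each other. These are descriptions of a short window, and a motif that is missing from it may lie elsewhere.

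Ptpn1 (probe set 10478897) read 8.69, 8.92 and 8.69 in WT replicates 1 to 3 and 5.73, 5.94 and 5.92 in KO replicates 1 to 3. Every P3 array therefore matched its genotype label. The difference was -2.90 ± 0.46 (adjusted p = 0.00425, limma), and -2.83 ± 0.52 without KO replicate 1 (adjusted p = 0.0439). The gap was of like size at the other stages, -2.91 at P0, -2.78 at P7, -2.72 at P10 and -2.23 at P15. Of the 18 tyrosine phosphatases on the list Ptpn1 was the 1 called, against 0.119% of all tested genes. At any size 13 were lower, against 54% of all genes, with a median of -0.08 (-0.03 without KO replicate 1). The receptor phosphatase Ptprs gave -0.41 ± 0.12 (adjusted p = 0.277, limma). Ptpn1 kept a difference of -2.93 without KO replicate 3, yet its adjusted p was then 0.0839. The fit takes 1 spread per gene from all 37 arrays, among them the array labelled KO P15 replicate 3, whose Ptpn1 value was WT-like.

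The 3 KO arrays were not alike, which bears on every result at this stage. KO replicate 1 carried skeletal muscle transcripts: creatine kinase M (Ckm) read 6.31, 6.29 and 6.18 in WT and 12.49, 7.02 and 6.58 in KO replicates 1 to 3. The skeletal muscle list had 20 members, and its score, the mean of the members' log2 values after centring each gene over the 37 arrays, was 5.33 in KO replicate 1, -0.02 and -0.26 in the other KO arrays and -0.36 to -0.21 in WT. KO replicate 3 had a low cell cycle score, -1.45, where the other 5 arrays lay between 0.29 and 1.16, and it had the highest interferon score. KO replicate 2 had neither feature to that degree. Its muscle score lay above the WT range, and its cell cycle score, 0.29, lay just below the lowest WT score, 0.30. Over all tested genes it correlated best with a WT array (Pearson r = 0.9926 with WT replicate 1). The correlation between KO replicates 1 and 3 was the lowest of the 15 pairs, 0.9462. Array medians lay between 6.62 and 6.70.

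**Figure D1:**
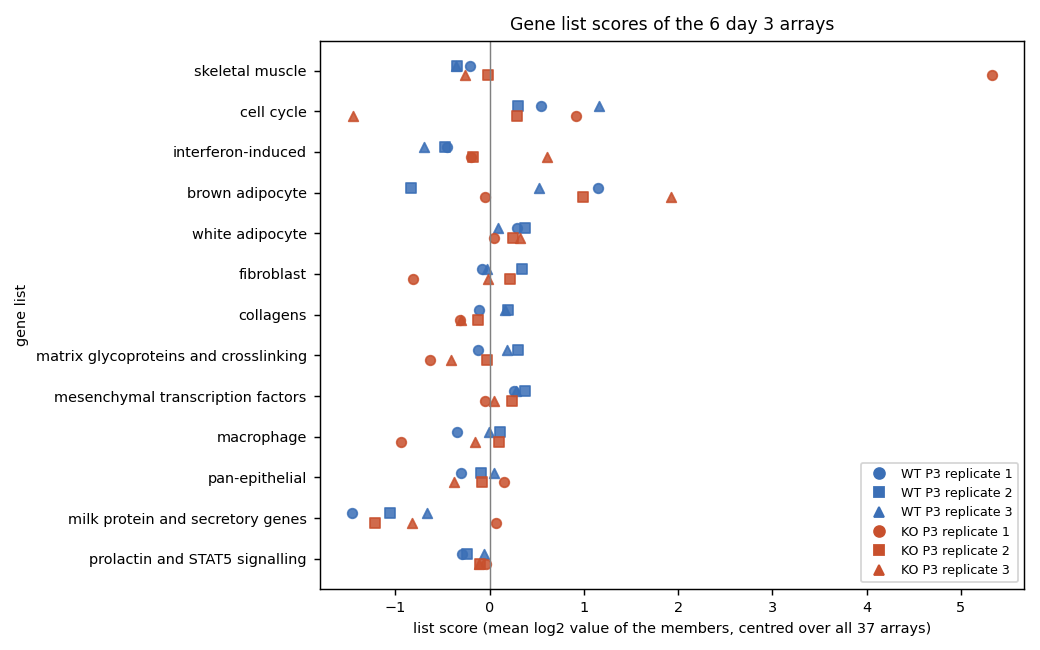
Scores of 13 gene lists (vertical axis) in the 6 P3 arrays; the horizontal axis is the mean log2 value of the list members after centring each gene over all 37 arrays, with WT in blue, KO in orange and a marker for each replicate. The muscle score of KO replicate 1 (5.33) and the cell cycle score of KO replicate 3 (-1.45) lie far from the other arrays.

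Left out one at a time, these arrays moved the number of called genes. Without KO replicate 1 there were 3 called genes (0.0178% of those tested): Ptpn1, Alx4 and Pdgfrb. Without KO replicate 3 limma called 0 genes, with 929 at an unadjusted p below 0.05, and without KO replicates 1 and 3 it called 0, with 250 at an unadjusted p below 0.05. Without KO replicate 2 it called 114, 94 of them lower in KO. Among the WT arrays the count was 29 without replicate 1, 9 without replicate 2 and 2 without replicate 3. The sizes moved less than the calls. The median difference of the 18 fallen genes was -0.83 (range -2.11 to -0.37) with all arrays and -0.82 (range -2.04 to -0.31) without KO replicate 1. With KO replicate 2 as the only KO array it was -0.61 (range -2.16 to -0.22). Dropping WT replicate 3 shrank this median to -0.68, and dropping KO replicate 3 shrank it to -0.69. It grew to -0.91, -0.85 and -0.93 when WT replicate 1, WT replicate 2 or KO replicate 2 was dropped. WT replicate 3 was the highest of the 6 P3 arrays for 15 of these 18 genes, so their falls lean on this WT array too. All 20 genes kept their sign in each alternative that was run. Where P3 arrays were left out this was fixed beforehand, because the WT and KO arrays of these genes did not overlap.

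**Figure D2:**
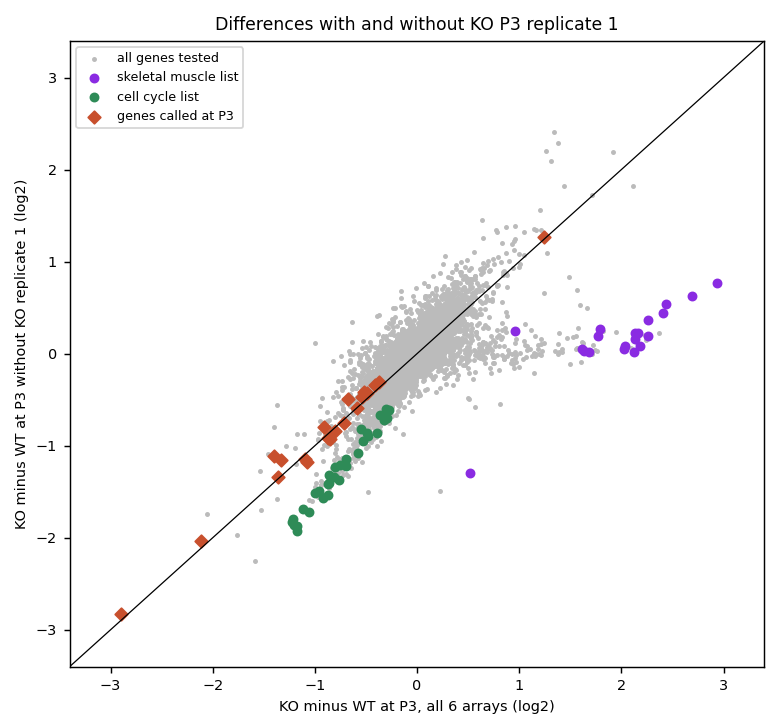
Each point is a tested gene, with its KO minus WT difference at P3 (log2) from all 6 arrays on the horizontal axis and without KO replicate 1 on the vertical axis; the line marks equal values. The genes called at P3 (diamonds) stay near the line, the skeletal muscle list (purple) drops from a median of 2.13 to 0.19, and the cell cycle list (green) moves from -0.79 to -1.28.

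Receptors and their signalling partners made up the first group of fallen genes. Pdgfrb (probe set 10456046), the receptor for PDGF-B on pericytes and fibroblasts, read 10.53, 10.87 and 10.91 in WT and 10.14, 10.18 and 9.86 in KO. All 3 KO arrays lay below all 3 WT arrays, with a difference of -0.71 ± 0.12 (adjusted p = 0.00425), or -0.75 ± 0.13 without KO replicate 1 (adjusted p = 0.0226). F2r, the thrombin receptor PAR1, read 8.75, 9.03 and 9.48 in WT and 8.22, 8.47 and 7.34 in KO. Its difference was -1.08 ± 0.21 (adjusted p = 0.0263), and KO replicate 3 was its lowest array. Gna12, a G protein alpha subunit that couples to PAR1, differed little but evenly, 11.06, 11.28 and 11.22 in WT against 10.68, 10.93 and 10.82 in KO, or -0.37 ± 0.08 (adjusted p = 0.0289). Arhgap6 fell by 0.52 ± 0.11. Tril, a leucine-rich partner of Toll-like receptor 4, read 8.39, 8.59 and 8.72 in WT and 7.42, 7.92 and 7.63 in KO, a fall of 0.91 ± 0.16. Cd109, a membrane-anchored protein that binds TGF-beta, fell by 1.10 ± 0.21, again with KO replicate 3 lowest at 6.10.

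Other members of these receptor families did not pass. Of the 7 PDGF ligands and receptors, Pdgfrb was the 1 called, against 0.119% of all tested genes, and the list's median difference was -0.07. Pdgfra, the receptor of fibroblasts and their progenitors, read 10.26, 10.90 and 10.27 in WT and 9.65, 10.41 and 10.42 in KO, so that its groups overlapped (-0.31 ± 0.18, adjusted p = 0.779). Of 19 receptor tyrosine kinases Pdgfrb was the 1 called and 12 were lower in KO at any size, with a median of -0.09 (0.01 without KO replicate 1), against 54% of all genes tested and a median of -0.01. Met, the receptor for hepatocyte growth factor, was higher in all 3 KO arrays, 9.42, 9.53 and 9.70 against 9.19, 9.16 and 9.42, but by 0.30 ± 0.14 and short of the threshold (adjusted p = 0.671); WT replicate 3 and KO replicate 1 were level to 2 decimals.

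Transcription factors of mesenchyme were the second group. Alx4 (probe set 10474081), a homeobox gene of limb and mammary mesenchyme, read 8.09, 8.23 and 8.33 in WT and 7.50, 7.58 and 7.19 in KO. The gap between the lowest WT and the highest KO array exceeded the spread within either group, and the difference was -0.80 ± 0.13 (adjusted p = 0.00425), or -0.84 ± 0.14 without KO replicate 1 (adjusted p = 0.0226). Snai2 (Slug), a zinc finger repressor of E-cadherin that is expressed in basal epithelium and stroma, read 9.54, 9.74 and 9.51 in WT and 8.55, 9.26 and 8.95 in KO, a fall of 0.68 ± 0.14. Without KO replicate 1, its lowest array, the difference was -0.49 ± 0.13 (adjusted p = 0.25). Its relative Snai1 (Snail) read 8.58, 8.70 and 8.90 in WT and 8.03, 8.26 and 8.25 in KO, a fall of 0.54 ± 0.11. Tcf4, an E protein of the basic helix-loop-helix class, fell by 0.49 ± 0.10.

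Of 27 mesenchymal transcription factors on the list, 2 were called (Alx4 and Snai2), 18 were lower at any size, 10 were lower at an unadjusted p below 0.05 and none was higher at that level. Over all tested genes 0.119% were called and 54% were lower at any size. The background was 4.7% of genes lower and 2.4% higher at that unadjusted level. The list was chosen with earlier results of these data known, so its 2 calls are a description. The list's median difference was -0.17, and -0.12 without KO replicate 1. Prrx2, a paired-type homeobox gene, gave -0.84 ± 0.19 (adjusted p = 0.0967), with 8.49, 8.11 and 9.01 in WT and 7.59, 8.07 and 7.43 in KO. Twist2, which marks dermal and stromal mesenchyme, gave -0.73 ± 0.19 (adjusted p = 0.179), with 9.06, 9.57 and 9.43 against 8.25, 8.83 and 8.77. For both genes the groups did not overlap, as for 8.4% of all genes tested (5.08% lower and 3.32% higher in KO), and neither passed the threshold.

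**Figure D3:**
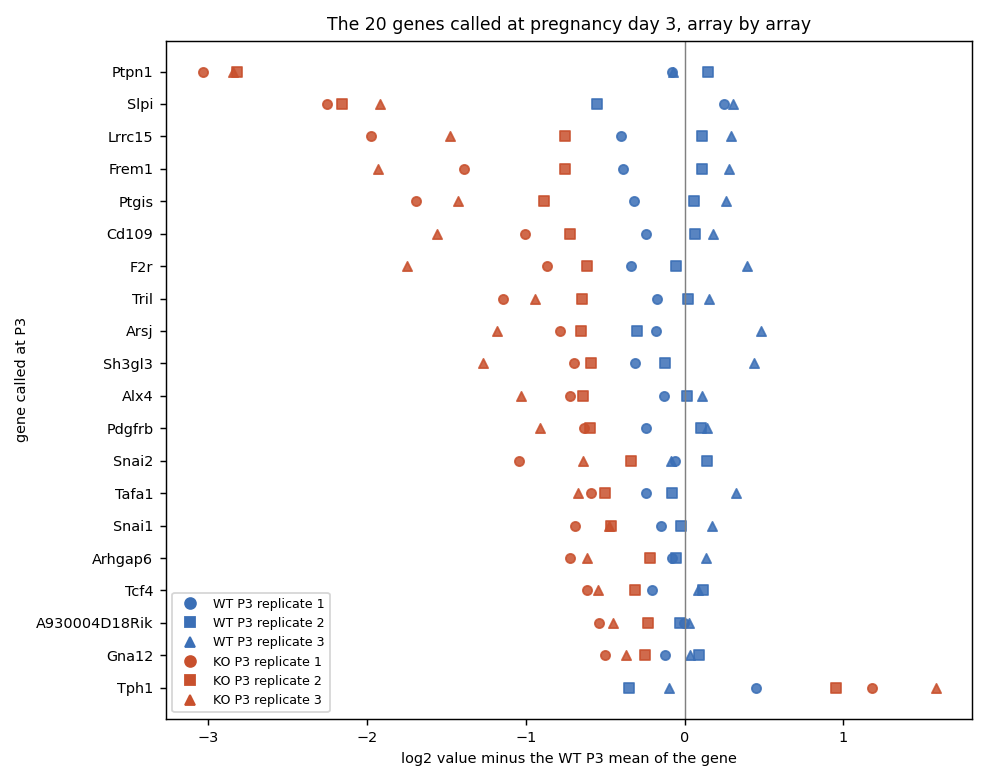
The 20 called genes (vertical axis) with the log2 value of each P3 array minus the WT P3 mean of that gene (horizontal axis); WT is blue, KO orange, and markers give the replicate. For each gene the WT and KO arrays do not overlap, as for 8.4% of all genes tested. The genes were chosen by p-values from these same values, so this adds no support to the calls. The KO array furthest to the left is replicate 1 or 3 for the 18 fallen genes other than Ptpn1.

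Matrix and cell surface proteins formed the third group. Frem1 (probe set 10514088), an extracellular matrix protein of the Fraser complex at the border of epithelium and mesenchyme, read 8.71, 9.20 and 9.38 in WT and 7.71, 8.34 and 7.17 in KO. Its difference was -1.36 ± 0.24 (adjusted p = 0.00782), and -1.34 ± 0.27 without KO replicate 1 (adjusted p = 0.0656). Lrrc15, a leucine-rich repeat protein on the surface of activated fibroblasts, read 8.76, 9.27 and 9.45 in WT and 7.19, 8.41 and 7.68 in KO. Its difference was -1.40 ± 0.25 (adjusted p = 0.00888), and it shrank to -1.12 ± 0.26 without KO replicate 1 (adjusted p = 0.113). Of 17 genes of the Fraser complex and basement membrane, Frem1 was the 1 called, against 0.119% of all tested genes. Frem2 gave -0.44 ± 0.17 (adjusted p = 0.561, limma), and the list's median was -0.11.

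None of the 20 collagens was called, yet 17 were lower in KO at any size, 12 were lower at an unadjusted p below 0.05 and 10 had arrays that did not overlap. Over all tested genes 54% were lower, 4.7% were lower at that unadjusted level and 5.08% were lower without overlap. The collagens' median difference was -0.37, and -0.28 without KO replicate 1. The 3 chains of collagen VI, a microfibril of loose stroma and muscle, were among the 4 collagens with the lowest p. Col6a1 read 10.04, 10.46 and 10.29 in WT and 9.56, 9.88 and 9.54 in KO (-0.60 ± 0.14, adjusted p = 0.109). Col6a2 gave -0.57 ± 0.14 and Col6a3 gave -0.50 ± 0.15, also with no overlap between the groups. The collagen score was -0.12, 0.19 and 0.16 in WT and -0.31, -0.13 and -0.31 in KO, so that KO replicate 2 and WT replicate 1 lay next to each other.

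The 22 matrix glycoproteins and crosslinking enzymes showed a similar count, with 0 called, 19 lower at any size and 12 lower at an unadjusted p below 0.05, against the same shares of all genes. Their median was -0.45, and -0.24 without KO replicate 1. Thbs2, a thrombospondin that binds collagen fibres, gave -1.11 ± 0.29 (adjusted p = 0.178) from 10.36, 10.99 and 10.96 in WT and 9.19, 10.14 and 9.64 in KO. Emilin1, an elastic fibre protein, gave -0.45 ± 0.12 (adjusted p = 0.178). Sparc and Postn, abundant proteins of stromal matrix, gave -0.21 ± 0.06 and -0.40 ± 0.11. The score of this list in KO replicate 2, -0.03, lay within the WT range of -0.13 to 0.30.

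Fibroblast markers moved with KO replicate 1. Of the 15 members, 0 were called and 12 were lower in KO, with a median of -0.31; without that array the median was -0.06 and 9 were lower. The score was -0.08, 0.34 and -0.03 in WT and -0.82, 0.21 and -0.02 in KO. Dermatopontin (Dpt), a matrix protein of quiescent fibroblasts, read 12.22, 12.48 and 12.25 in WT and 10.85, 12.46 and 11.95 in KO. In bulk tissue, fewer cells of a type and less RNA per cell cannot be told apart. KO replicate 2 had a fibroblast score inside the WT range and a muscle score, -0.02, above the WT range of -0.36 to -0.21. Whether the mix of cells in the other KO arrays had a part in the calls was not tested beyond the fits below and those without the arrays. With the muscle or cell cycle score as a covariate, 7 and 10 genes were called, against 20 without. The median difference of the 18 fallen genes was -0.78 and -0.70 in those 2 fits, against -0.83, and all 20 called genes kept their sign. These genes were chosen by the same P3 values, so their sizes and signs cannot decide the question. At P3 the muscle score mainly sets KO replicate 1 (5.33) apart, so that fit comes near to leaving this array out.

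Lipid mediators and secreted proteins were the fourth group. Ptgis (probe set 10489878), prostacyclin synthase, read 8.80, 9.18 and 9.38 in WT and 7.43, 8.23 and 7.70 in KO. Its difference was -1.34 ± 0.22 (adjusted p = 0.00425), or -1.16 ± 0.24 without KO replicate 1 (adjusted p = 0.0697). It was the 1 called gene of 17 for prostanoid synthesis and receptors, whose median was -0.02, where 0.119% of all tested genes were called. The prostaglandin F receptor Ptgfr gave a larger but noisier value, -1.54 ± 0.37 (adjusted p = 0.109), from 8.17, 8.99 and 8.87 in WT and 6.62, 7.78 and 7.02 in KO. Slpi (probe set 10489463), the secretory leukocyte protease inhibitor, which blocks neutrophil elastase at epithelial surfaces, read 9.18, 8.38 and 9.24 in WT and 6.68, 6.77 and 7.01 in KO. After Ptpn1 it had the largest drop of the called genes and fell by 2.11 ± 0.42 (adjusted p = 0.0255), and without KO replicate 1 it was -2.04 ± 0.47 (adjusted p = 0.113). It was the 1 member called of 16 secreted protease inhibitors and defence proteins, whose median was 0.08. Lactoferrin (Ltf), an iron-binding defence protein on the same list, went the other way, 9.68, 7.87 and 9.22 in WT and 9.86, 10.05 and 10.49 in KO, short of the threshold (1.21 ± 0.54, adjusted p = 0.659). Tafa1, a secreted chemokine-like protein, fell by 0.59 ± 0.13. Of the genes outside these groups, Arsj, an arylsulfatase, fell by 0.87 ± 0.17 and Sh3gl3, the endocytic protein endophilin A3, fell by 0.85 ± 0.18. The remaining fallen gene was a predicted one.

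Tph1 (probe set 10563570), the rate-limiting enzyme of serotonin synthesis outside the brain, read 8.27, 7.47 and 7.72 in WT and 9.00, 8.77 and 9.41 in KO. All KO arrays lay above all WT arrays, and the rise was 1.24 ± 0.24 (adjusted p = 0.0226), or 1.27 ± 0.27 without KO replicate 1 (adjusted p = 0.0785). Serotonin made by mammary epithelium acts locally on secretion and on calcium handling. Tph1 was the 1 called gene of 14 tested for tryptophan and serotonin, and the list's median was -0.03. Genes higher in KO made up 0.00593% of those tested at the threshold and 2.4% at an unadjusted p below 0.05.

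Genes of prolactin signalling and of milk were not called at P3. The 14 genes for prolactin and STAT5 had a median of 0.04. Of them 1 had an unadjusted p below 0.05 (limma), near the share of 7.1% over all tested genes. That gene was Cish, a STAT5 target that feeds back on the receptor: 8.18, 7.40 and 8.22 in WT and 8.43, 9.02 and 9.50 in KO (1.05 ± 0.33, adjusted p = 0.352; 1.32 ± 0.35 without KO replicate 1). The 20 milk protein and secretory genes had a median of 0.25, with 17 higher in KO, where 7767 of all 16870 tested genes were higher. Without KO replicate 1 the median of the list was 0.03 and 9 were lower. Butyrophilin (Btn1a1), a protein of the milk fat globule membrane, read 7.19, 7.91 and 8.05 in WT and 9.33, 8.01 and 9.62 in KO (1.27 ± 0.38, adjusted p = 0.282). The milk score of KO replicate 1, 0.06, was the highest of the 6 arrays, while the other KO arrays, -1.21 and -0.82, lay within the WT range of -1.47 to -0.67. Cebpb, a transcription factor needed for alveolar development, was near the threshold, with 7.89, 7.73 and 7.82 in WT and 8.23, 8.34 and 8.66 in KO (0.60 ± 0.14, adjusted p = 0.0797). Axin2, a feedback target of Wnt signalling, was near it in the other direction, 8.56, 8.45 and 8.56 against 7.92, 8.03 and 7.87 (-0.58 ± 0.14, adjusted p = 0.0967); of the 22 Wnt genes 0 were called and their median was -0.06.

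The cell cycle list moved with KO replicate 3, and the interferon list did so in part. All 32 cell cycle genes were lower in KO, against 54% of all genes, with 0 called and a median of -0.79. Of them 13 had an unadjusted p below 0.05 (limma), where 4.7% of all genes were lower at that level. Arrays that did not overlap were seen for 0 of the 32, where 5.08% of all genes were lower without overlap. The mitotic kinase Plk1 read 8.82, 8.75 and 9.82 in WT and 9.10, 8.48 and 6.19 in KO. The cyclin Ccnb2 read 9.94, 9.83 and 10.65 in WT and 10.12, 9.66 and 6.97 in KO. Without KO replicate 3 the difference of the list score was -0.06, against -0.75 with all arrays. The 17 interferon-induced genes were all higher in KO, with 0 called, 9 at an unadjusted p below 0.05, 9 without overlap and a median of 0.68 (0.77 without KO replicate 1). Over all genes 2.4% were higher at that unadjusted level and 3.32% were higher without overlap. Oas2, an antiviral synthetase, read 7.39, 7.13 and 7.50 in WT and 7.72, 8.30 and 8.82 in KO (0.95 ± 0.35, adjusted p = 0.524). The interferon score was -0.45, -0.48 and -0.70 in WT and -0.19, -0.18 and 0.61 in KO, so that every KO array lay above the WT arrays. Without KO replicate 3 the score difference was 0.36, against 0.62 with all arrays. At P0 all 17 members were higher in KO too, with a median of 0.47, where 48.1% of all tested genes were higher. The median interferon score was higher in KO than in WT at every stage, with overlapping ranges at P0, P7 and P15.

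Markers of the gland's other cell types showed how far the P3 glands matched in makeup. The pan-epithelial score was -0.31, -0.09 and 0.04 in WT and 0.15, -0.09 and -0.38 in KO, and the 19 members had a median of 0.03. Without KO replicate 1 that median was -0.11 and 17 members were lower in KO. The brown adipocyte median was 0.50 with all arrays and 0.91 without KO replicate 1. Brown adipocyte markers varied widely within both genotypes, with scores of 1.15, -0.83 and 0.52 in WT and -0.05, 0.99 and 1.92 in KO; Elovl3, a fatty acid elongase of brown fat, ranged from 6.42 to 10.18 in WT and from 8.16 to 11.38 in KO. White adipocyte markers had a median of -0.01, and endothelial markers 0.01. Of the 13 pericyte and smooth muscle markers Pdgfrb was the 1 called, against 0.119% of all tested genes. The list's median was 0.21, with desmin (Des) at 11.98 in KO replicate 1 against 7.72 to 8.91 in the other 5 arrays. Macrophage markers had a median of -0.32, and 0.03 without KO replicate 1.

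Of the 20 called genes, 6 lie on chromosome 2: Ptpn1 itself, Slpi, Ptgis, Alx4, Snai1 and a predicted gene. Of all genes tested, 7.93% lie on that chromosome. In order of tested genes, Snai1 is 5 genes from Ptpn1, Ptgis 10 and Slpi 62, and the uncalled Cebpb is 2 away. Alx4 and the predicted gene lie outside the 50 nearest tested genes. The promoter of the predicted gene is at chr2:18037742-18037991, far from that of Ptpn1 at chr2:167932077-167932326. Of the 50 nearest tested genes, 25 on each side, 2 were called (Snai1 and Ptgis), 31 were lower and 12 had arrays that did not overlap, with a median of -0.05. Over all genes 0.119% were called, 54% were lower and 8.4% did not overlap. The null allele was brought in by backcrossing, so the loss of PTP1B and donor-strain sequence still linked to it cannot be told apart for genes near it.

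Most of the fallen genes had the opposite sign at P0, and most had the same sign as at P3 at the later stages. The arrays of those stages do not enter the P3 difference, but they do enter the spread of each gene, and so the p-values that chose the genes; calls at the other stages are therefore not independent of the choice. At P0, 16 of the 18 were higher in KO, as were 48.1% of all tested genes, and their median was 0.48. Of the 18, 9 were called higher at P0 against 1.27% of tested genes and Slpi was called lower against 0.421%; in either direction 1.7% of genes were called. A sign at P0 opposite to that at P3 was the more common case over all genes too, at 63.1%. At P7 all 18 were lower (49.8% of all genes were), with 0 called by limma and a median of -0.20; over all genes 1 was called at that stage (0.00593%). At P10, 16 were lower against 55.7%, and 7 were called lower and 0 higher against 9.12% and 8.1% (17.2% in all). Without the 7 arrays in doubt, 2 of them from the 3 KO arrays at P10, 0 of the 18 were called by limma at P10, where 16 stayed lower with a median of -0.27, and 0.00593% of all genes were called lower. At P15, 15 were lower against 47.1%, and 7 were called lower and 0 higher against 4.33% and 6.78% (11.1% in all). Frem1 showed the widest change: its WT mean was 7.10 ± 0.37 (SD, n = 4) at P0 and 9.10 ± 0.35 (SD, n = 3) at P3, while its KO mean was 8.42 ± 0.36 (SD, n = 4) and 7.74 ± 0.59 (SD, n = 3). Alx4 went from 7.17 ± 0.15 to 8.22 ± 0.12 in WT and from 7.92 ± 0.23 to 7.42 ± 0.21 in KO. Pdgfrb went from 10.12 ± 0.11 to 10.77 ± 0.21 in WT and from 10.62 ± 0.08 to 10.06 ± 0.17 in KO, and it was called lower in KO again at P10 (-0.62 ± 0.12) and P15 (-0.66 ± 0.10). Thus at P0 the KO gland had the higher mean of all 3 genes, and at P3 the WT gland did.

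**Figure D4:**
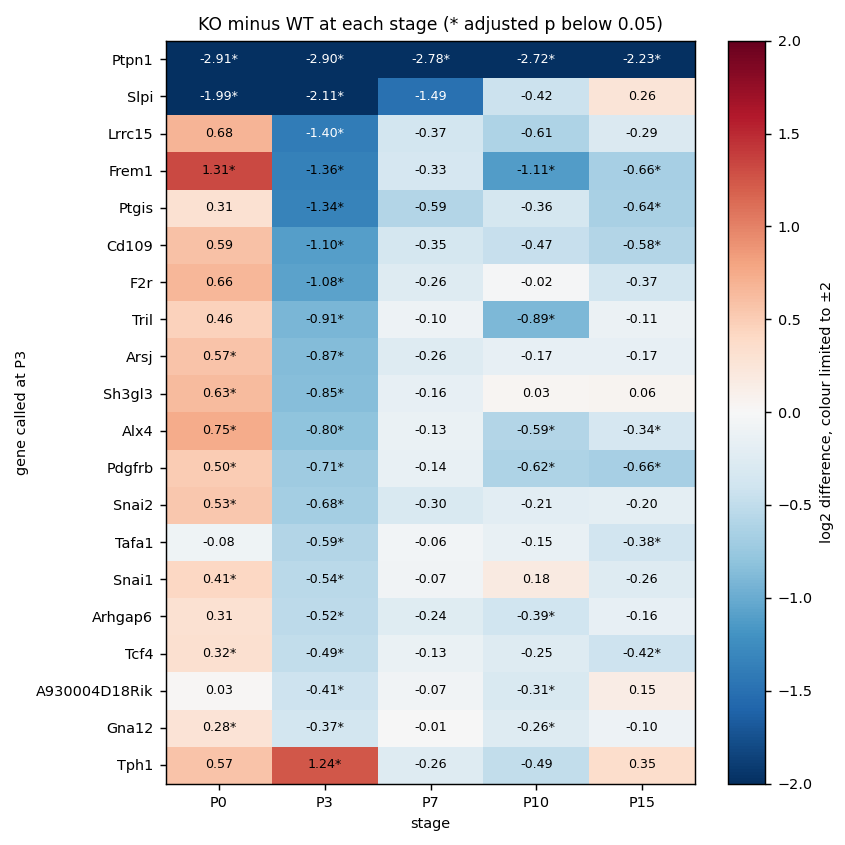
KO minus WT (log2) for the 20 called genes in rows at the 5 stages in columns, with the value in each cell, a star where the adjusted p is below 0.05, and blue for lower and red for higher in KO. The P0 values are above 0 for 16 of the 18 fallen genes other than Ptpn1, with Slpi at -1.99 and Tafa1 at -0.08 below it, and the P3 column is blue for all of them.

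The difference at P3 was tested against that at P0, a contrast added after this change of sign was seen. Of all genes 333 were called (1.97%), 282 of them with the lower value at P3 (1.67%). All of the 18 fallen genes but Slpi and Tafa1 were among them, for example Frem1 (-2.67 ± 0.31), Alx4 (-1.55 ± 0.17) and Pdgfrb (-1.22 ± 0.15). The P3 arrays that chose these genes also enter the contrast, and the P0 arrays entered the spread behind the choice, so these values are a description. Muscle transcripts also turned between these stages, in the other direction: the muscle score of 1 WT array at P0 was 4.95, and the list's median difference was -1.65 at P0 and 2.13 at P3. Without 7 arrays in doubt, among them that array and KO P3 replicate 1, 16 of the 18 genes were still higher in KO at P0, with a median of 0.44 and 4 called higher against 0.468%. The cell cycle list also turned, from a median of 0.82 at P0 to -0.79 at P3, and with its score as a covariate 15 of the 18 were higher at P0, with a median of 0.37. The fibroblast list went from 0.25 to -0.31. The part of these shifts in the change of sign was not tested further.

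**Figure D5:**
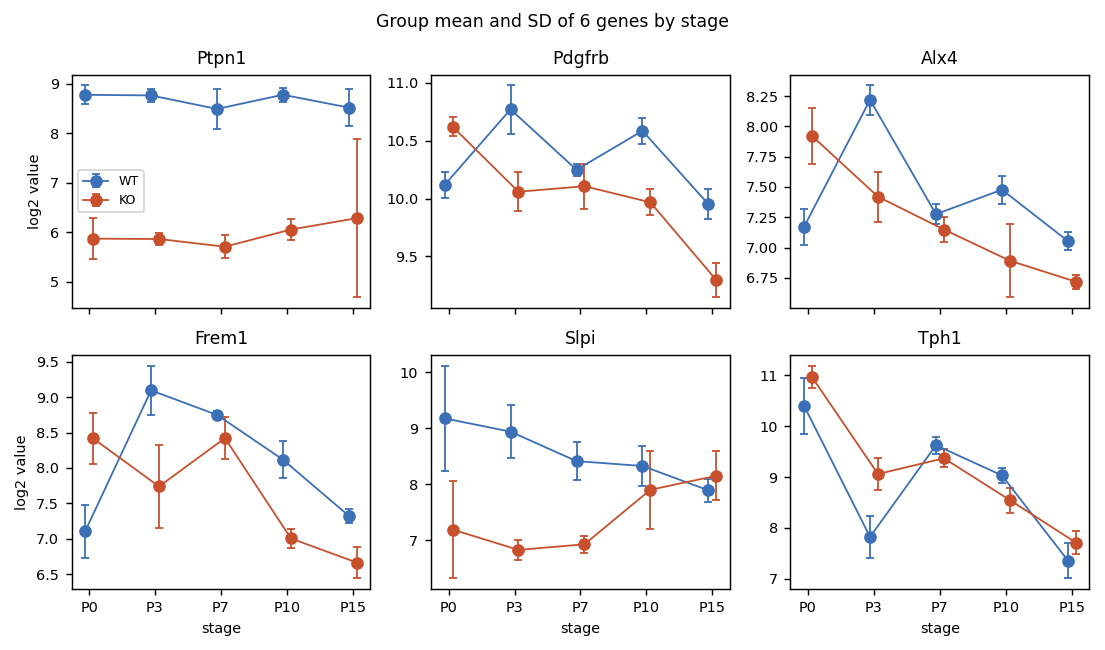
Group means (points) and SD (bars) of log2 values of 6 genes against stage, for WT in blue and KO in orange, with 3 to 5 arrays in a group. Between P0 and P3 the lines of Frem1, Alx4 and Pdgfrb cross, Ptpn1 stays apart at every stage, Slpi has the lower mean in KO through P10, and Tph1 is higher in KO at P3.

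Slpi and Tph1 followed courses of their own. Slpi was lower in KO at P0 (7.19 ± 0.86 against 9.17 ± 0.94, SD, n = 4 each) and at P3, lay below WT at P7 and P10 without passing the threshold (-1.49 ± 0.34 and -0.42 ± 0.42), and at P15 was 8.15 ± 0.43 in KO and 7.89 ± 0.20 in WT. In WT the mean of Tph1 was 10.40 ± 0.54 at P0, 7.82 ± 0.41 at P3 and 9.63 ± 0.17 at P7; in KO the means were 10.97 ± 0.22, 9.06 ± 0.32 and 9.37 ± 0.18. Its genotype difference was called at P3 and at no other stage, but the difference between the P3 value and the P0 value was not past the threshold (0.67 ± 0.31, adjusted p = 0.232).

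Tested against the mean genotype difference of the other 4 stages, the P3 difference was past the threshold for 0 genes by limma, with 1384 at an unadjusted p below 0.05. The lowest adjusted p was 0.0845, and the genes that shared it included Alx4, Snai1 and Sh3gl3 and the uncalled Tmod3 and Ppm1l. Tmod3, a cap of actin filaments, read 10.46, 10.26 and 10.61 in WT and 9.95, 10.19 and 9.72 in KO. Ppm1l, a serine and threonine phosphatase, read 7.56, 7.37 and 7.08 in WT and 8.19, 7.59 and 8.22 in KO. None of the called genes was thereby shown to be particular to day 3 as against the mean of the other stages.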

How the data were processed

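Mammary gland RNA was measured on 37 arrays, 6 of them at P3. The deposited table holds 1 log2 value per probe set and array; the submitters' processing notes name affy, and the sources used here do not state the background correction, the normalisation or any batch. Of 34760 probe sets, 21648 have 1 gene symbol in the platform annotation, 1313 several and 11799 none. For a gene with more than 1 probe set (954 of 19945 genes) the probe set of highest mean stood for the gene. Testing was limited to the 16870 genes with a value above 4.96, the 25th percentile of the table, on 3 or more arrays (3075 left out). The number of arrays limits the precision.

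A linear model with a mean for each of the 10 groups was fitted to all 37 arrays with limma 3.58.1 under R 4.3.3, and KO minus WT was tested at each stage, two-sided, with Benjamini-Hochberg adjustment over all tested genes and a threshold of 0.05. The P3 difference was also set against the mean of the other 4 stages and, as a contrast added after the data were seen, against P0. The fit was tested on simulated data. The members, the 40 gene lists and the tests were chosen with earlier results of these data known; lists are described by counts and medians, with no set test. Named genes were Ptpn1, every called gene, the 5 smallest p of the test against the other stages, the leading genes of the fit without KO P3 replicate 1, and up to 4 members per list with the smallest p, of which the text gives examples picked after their values were seen.

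The fit was repeated without the filter, on every probe set, after a quantile normalisation of the deposited values and after centring each array. It was repeated with a trended and robust prior, array weights, the muscle or cell cycle score as covariate, or a replicate block. It was also run on the P3 arrays alone, without KO P15 replicate 3 and without each P3 array, and list scores were taken with the median of a list. Added later were fits without 7 arrays in doubt, without KO P3 replicates 1 and 3, and on the P3 arrays without KO replicate 1. Of these 7, 3 carry muscle transcripts (KO P3 replicate 1, KO P7 replicate 3 and WT P0 replicate 4), 3 are rich in lymphocyte transcripts (WT P7 replicate 1, KO P10 replicates 2 and 3) and KO P15 replicate 3 has a Ptpn1 value against its label. RefSeq tables (GRCm38.p6) gave gene order and promoters, and 19926 genes matched.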

Additional observations from a re-analysis of the deposited data

Results flagged for a closer look

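For 16 of the genes that fell at P3 the genotype difference at P3 differed from that at P0 by the test of the difference itself (limma, adjusted p below 0.05); the P3 arrays that chose these genes also enter this contrast. The P3 difference minus the P0 difference was -2.67 for Frem1, -2.08 for Lrrc15 and -1.74 for F2r. Next came Cd109 (-1.68), Ptgis (-1.64), Alx4 (-1.55), Sh3gl3 (-1.49), Arsj (-1.44) and Tril (-1.38). The smaller values were -1.22 for Pdgfrb, -1.21 for Snai2, -0.95 for Snai1, -0.83 for Arhgap6, -0.81 for Tcf4, -0.65 for Gna12 and -0.44 for the predicted gene A930004D18Rik. At P0, 9 of the 18 fallen genes were called higher in KO in the fit of all 37 arrays, whose spread per gene also entered the choice of these genes.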

How the results depend on the processing

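The 20 called genes (1 higher, 19 lower) were 10 with all probe sets (9 lower), 8 with array weights (2 higher, 6 lower), 7 with the muscle score as a covariate (6 lower) and 10 with the cell cycle score (0 higher, 10 lower). With the P3 arrays alone 1 was called (0 higher, 1 lower), and likewise without KO replicate 1 in that fit. Without the 7 arrays in doubt 2 were called (0 higher, 2 lower), and without KO P3 replicates 1 and 3, 0. Leaving out each P3 array gave 0 to 114 called, 0 to 20 higher and 0 to 94 lower. Without a filter, after quantile normalisation, after centring, with a trended prior and without KO P15 replicate 3 the count was 16 to 21. The cause of these changes was not tested. Against the other 4 stages, 0 genes were called in the fit of all arrays, 1 with array weights and 0 to 38 with a P3 array left out. Against P0 the 333 calls were 141 with the muscle covariate, 179 without the 7 arrays in doubt, 3 without KO P3 replicates 1 and 3, and 118 to 827 with a P3 array left out. The difference of Ptpn1 was -2.93 without KO replicate 3 (adjusted p = 0.0839) and -2.82 without KO replicates 1 and 3 (adjusted p near 1), where it missed the threshold; leaving out each P3 array gave -2.94 to -2.83. Of the genes given with P3 values in the report, Dpt turned, to 0.15 without KO replicates 1 and 3. Of 40 list scores 18 turned sign in some alternative, 8 of them without KO replicate 1. Same-numbered P3 arrays had correlations of -0.11, 0.06 and -0.52 in their deviations from the group means, so the numbers do not pair them; a replicate block called 23 genes (22 lower), 19 of the 20 among them.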
